A study of Homo sapiens with 9 samples.

Results

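Unfractionated vesicles (hESEVs) released by human embryonic stem cells were compared with exosomes (EXOs) purified from medium of the same cells. The members were the 6 arrays whose labels name these preparations, 3 of hESEVs and 3 of EXOs, out of 9 in the series, and all 54,613 probe sets other than controls, out of 54,675. These probe sets gave 19,775 genes. H9 is a widely used human embryonic stem cell line, grown here without serum or feeder cells in mTeSR1 medium on Matrigel. For hESEVs, medium collected over 24 h at 80% confluence was cleared of debris and broken cells at 300g for 10 min and then spun directly at 120,000g for 2 h. For EXOs, the 300g spin was followed by 2,800g for 40 min, which removes apoptotic bodies, and 16,500g for 1 h, which pellets microvesicles (MVs), and only then by the same spin at 120,000g for 2 h. By the labels, a hESEVs pellet therefore still held the material that the 2,800g and 16,500g spins took out of EXOs. The published methods give other speeds and times for the hESEVs spins and state that the clearing spin also pelleted apoptotic bodies. Under that account the hESEVs pellet would lack apoptotic bodies as well. The 2 accounts thus differ on what separates the groups, and the separation is known only as far as they go. The remaining 3 arrays, MVs pelleted at 16,500g, are used only beside results on hESEVs. No treatment or genetic change was applied, and the methods name 3 biological samples of each kind.

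Cells shed vesicles by several routes. Exosomes form as buds inside endosomes and leave when the endosome fuses with the cell surface, while microvesicles and the larger apoptotic bodies pinch off from the plasma membrane and can enclose a larger part of the cytoplasm. Both kinds carry messenger RNA and small RNA, and vesicles of stem cells are studied because they can hand RNA to other cells, here with Müller glia of the retina in mind. The comparison of hESEVs with EXOs asks which RNA is found in an unfractionated pellet and is not found, or is found at a lower level, once the heavier material has been removed.

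The 5′ ends of several called genes are shown first, since many of those genes encode parts of the translation machinery. Messenger RNAs of that machinery often begin with a cytosine followed by a run of pyrimidines, the 5′ terminal oligopyrimidine tract through which their translation is controlled. Each line gives 15 bases before a RefSeq start and 15 from it, 5′ to 3′ on the gene's strand, in assembly GRCh38.p14, with the tract from the start in capitals.
RPL35, large ribosomal subunit, chr9:124861943-124861972, minus strand: agccccgcctacttcCTCTTTCCCTCggag
RPL11, large ribosomal subunit, the second of its listed starts, chr1:23691791-23691820, plus strand: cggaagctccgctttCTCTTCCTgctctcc
RPL38, large ribosomal subunit, chr17:74203663-74203692, plus strand: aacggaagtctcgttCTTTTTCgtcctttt
TPT1, translationally controlled tumor protein, chr13:45341169-45341198, minus strand: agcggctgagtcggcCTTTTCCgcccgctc
ZFAS1, a snoRNA host gene, chr20:49278627-49278656, plus strand: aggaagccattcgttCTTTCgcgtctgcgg
COX7C, cytochrome c oxidase, chr5:86617926-86617955, plus strand: ccatttcccatctttCTTTTCagtccttgc
GAPDH, glycolysis, with no such tract, chr12:6535249-6535278, plus strand: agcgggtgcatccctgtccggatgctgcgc
NDUFA13, complex I, with no such tract, chr19:19516210-19516239, plus strand: cgggaccggaagtgtgggatactgcgagta

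Values are MAS5 signals, brightness per probe set on a linear scale, with each array scaled to the same target of 500. A log2 difference is hESEVs minus EXOs after signals under 32 were raised to 32, with its standard error (SE). A gene was called higher in a group when limma gave a Benjamini-Hochberg adjusted p under 0.05 and the difference was at least 2-fold. The median signal of an array lay between 415 and 421 for hESEVs, 422 and 430 for EXOs, and 358 and 365 for MVs. Replicates of hESEVs correlated at 0.785 to 0.795 over log2 signals, replicates of EXOs at 0.765 to 0.768, and a hESEVs array with an EXOs array at 0.738 to 0.752. As a mark of background, 77 genes restricted to other tissues (liver, muscle, blood and others) were read on the same arrays. The 90th percentile of their mean signals was 1052 in hESEVs, 1290 in EXOs and 853 in MVs, and a signal under that level cannot be told apart from background here. Of 8 measured marker genes of embryonic stem cells, 7 lay above the level in hESEVs (SALL4 did not), 3 in EXOs (L1TD1, LIN28A and DNMT3B), and all 8 in MVs. Each group was held against its own level, so these counts do not compare signals between groups. NANOG, with means of 1223 in hESEVs and 1278 in EXOs, counted as above the level in hESEVs alone. Each array measured a pellet of many vesicles at a common scaling, so fewer vesicles that carry an RNA and less of it per vesicle cannot be told apart, nor is the amount of RNA per vesicle known.

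Nearly every called difference ran towards hESEVs. Of 19,775 genes, 387 were higher in hESEVs (1.96%) and 6 were higher in EXOs (0.0303%), and the median log2 difference of all genes was -0.01. By probe set, 719 of 54,613 were higher in hESEVs (1.32%) and 20 were higher in EXOs (0.0366%). Of the 387 genes, 151 differed at least 4-fold and 40 at least 8-fold. The 3 hESEVs arrays lay above the 3 EXOs arrays for all 387, which the call nearly requires. Over all genes, 2118 (10.7%) had every hESEVs array above every EXOs array and 1604 (8.11%) the reverse. Most of the 387 genes, 346 (89.4%), had a mean over the background level in hESEVs, whereas 241 (62.3%) had an EXOs mean under it. Means lay over the level in both groups for 146 genes, in hESEVs alone for 200, and in neither group for 41. Over all 19,775 genes, 3408 had a mean over the level in hESEVs and 1899 in EXOs. The call requires a higher signal in hESEVs and the level is higher in EXOs. This split thus follows largely from the call and is only a description. Of the 387, 376 (97.2%) were protein coding, against 83.5% of all genes. One of the 28 gene lists described here held 187 of the 387 (48.3%), against 4.41% of all genes. The lists were chosen with earlier results of these data known, so this share may reflect that choice and is only a description.

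These counts depended on single hESEVs arrays and on the scaling. Without hESEVs replicate 1, 2 or 3, 242, 251 or 253 genes were higher in hESEVs. These included 238, 244 and 243 of the 387. By probe set, the counts were 468, 478 and 498. Without an EXOs replicate the gene counts were 316 to 329. After quantile normalization, 312 genes were higher in hESEVs and 62 in EXOs, so that 83.4% of calls ran towards hESEVs in place of 98.5%. Of the 719 probe sets higher in hESEVs, 517 (71.9%) carry a mark in their name for probes that also match other transcripts, against 31.5% of all probe sets. With these left out, 102 of 16,788 genes were higher in hESEVs and 0 were higher in EXOs, where 387 and 6 genes had been called by limma at the same thresholds.

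Genes were also counted by their mean log2 signal over the 6 arrays, to which both groups contribute equally. Of 273 genes with a mean over 3000, 119 (43.6%) were higher in hESEVs. The share was 5.12% of 3264 genes between 1000 and 3000, 0.639% of 10,960 between 300 and 1000, 0.682% of 3814 between 100 and 300, and 0.342% of 1464 under 100. A bright signal was not enough for a call, since 129 of the 273 lay within 1.5-fold of EXOs without being called. Of the 273, 102 were not called and had a log2 difference below 0. Among these, RASEF (a large RAB GTPase), chosen after its values were seen, read 84,417, 85,817 and 81,884 in hESEVs and 94,028, 90,264 and 97,582 in EXOs. COLCA1, also chosen after its values were seen, read 116,204, 117,200 and 109,782 in hESEVs and 113,139, 106,056 and 121,671 in EXOs, a log2 difference of 0.01.

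**Figure D1:**
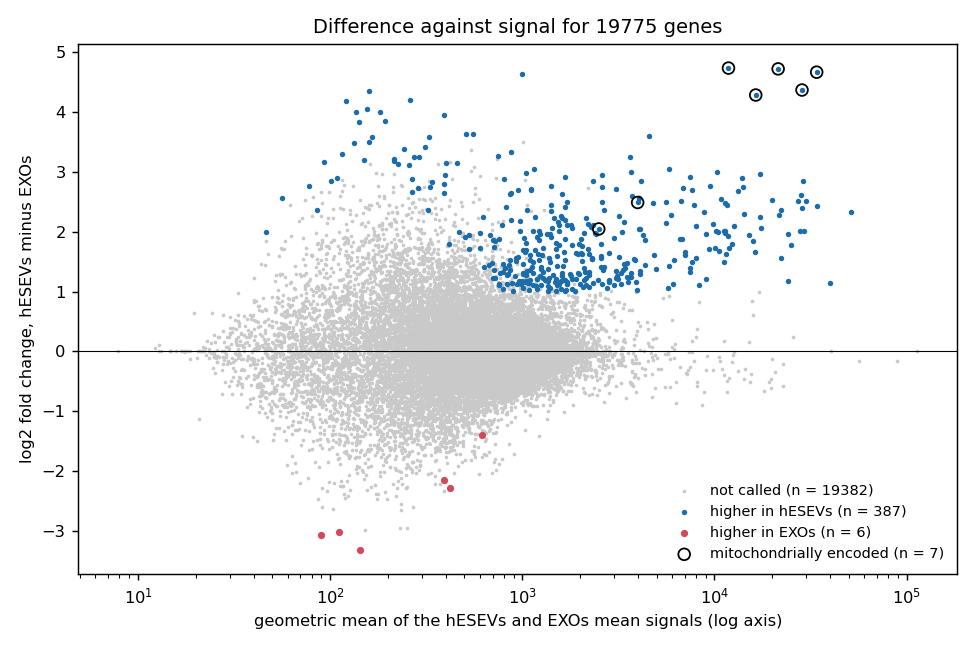
Log2 difference, hESEVs minus EXOs, against the geometric mean of the group signals (log axis), with a point for each of 19,775 genes. The 387 genes higher in hESEVs (blue) lie mainly at signals over 1000, the 6 higher in EXOs (red) lie under 1000, and the 7 mitochondrially encoded genes (circles) are higher in hESEVs.

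Among the calls of largest fold were RNAs transcribed from the mitochondrial genome, which encodes core subunits of the respiratory chain and the ATP synthase. All 7 that were measured were higher in hESEVs, beside 1.96% of all genes, with a median log2 difference of 4.37 against -0.01 for all genes. The count was 7 without any 1 array and after quantile normalization, which gave a median of 3.61. ND4, a subunit of complex I, read 106,898, 117,611 and 106,070 in hESEVs and 4169, 4217 and 4152 in EXOs. This was a 26.3-fold difference (log2 4.72, SE 0.12, adjusted p = 4e-06), far beyond the spread within either group. COX2, which holds the electron entry site of cytochrome c oxidase, read 196,194, 171,204 and 148,328 against 6688, 6342 and 7210, a 25.4-fold difference. COX1, the catalytic subunit of the same enzyme, read 142,991, 123,733 and 122,814 against 6181, 6223 and 6445 (20.6-fold), and ND2 of complex I 72,931, 73,400 and 70,675 against 3598, 3933 and 3630 (19.5-fold). ATP6, part of the proton channel of the ATP synthase, read 58,368, 62,720 and 59,624 in hESEVs and 1759, 2170 and 3045 in EXOs (log2 4.73, SE 0.19, adjusted p = 2.8e-05). Its call was lost without shared probe sets, where another probe set gave 1.36 (adjusted p = 0.34). The remaining pair, ND6 and COX3, differed 5.61-fold and 4.13-fold. Without shared probe sets, 3 of the 4 genes still measured were higher in hESEVs. The nuclear genome holds copies of mitochondrial sequence, and signals of these probe sets could include such copies.

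The mitochondrially encoded RNAs differed little between hESEVs and MVs, with log2 differences from -0.52 to 0.30, whereas the medians of nuclear oxidative phosphorylation and of the cytosolic ribosomal proteins, described after them, lay between the fractions. The hESEVs against MVs comparison uses the same 3 hESEVs arrays and is therefore given side by side, not as a separate line of evidence. Over all genes, 198 were higher in hESEVs than in MVs (1.00%), 1316 were higher in MVs (6.65%), and the median log2 difference was 0.20. The 198 became 67 with arrays centred on their medians, 380 after quantile normalization and 112 to 164 with an array left out, and the 1316 became 758 after quantile normalization. None of the 7 mitochondrially encoded genes was called against MVs by limma at the same thresholds (2 had an unadjusted p under 0.05, neither at 2-fold), and their median log2 difference was 0.18. ND4 read 95,310, 95,242 and 95,734 in MVs (log2 difference of hESEVs minus MVs 0.21, adjusted p = 0.44), and ATP6 50,384, 51,473 and 57,838 (0.18, adjusted p = 0.42). Summed over the 7 genes, signals were 523,700 to 592,303 in hESEVs, 25,549 to 27,294 in EXOs and 471,798 to 499,695 in MVs. The list median against MVs was 1.17 after quantile normalization, with 6 of the 7 called higher in hESEVs, and -0.03 with arrays centred on their medians, a scaling that moved the median of all genes to -0.01, so no direction against MVs is given.

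Ribosomal RNA is the other abundant cytoplasmic RNA that the array reads, through control probe sets that were not in the tests across genes. The 28S control nearest the 5′ end of that RNA read 63,263 ± 7462 (SD, n = 3) in hESEVs, 4851 ± 241 in EXOs and 63,683 ± 4580 in MVs, 12.99-fold higher in hESEVs than in EXOs. The middle 28S control read 19,886 in hESEVs, 5207 in EXOs and 20,718 in MVs, and was 3.80-fold higher. The 3′ 28S control differed 1.04-fold (exact permutation p = 0.8). The 18S 3′ control was 4.11-fold higher in hESEVs and its 5′ and middle controls 1.34-fold and 1.43-fold higher. Against EXOs, each of these except the 3′ 28S control gave an exact two-sided permutation p of 0.1, the smallest that 3 against 3 arrays allow. Unlike the 5′ and middle 28S controls, the 18S controls were higher in hESEVs than in MVs. The 18S 3′ control read 18,379 in hESEVs and 9277 in MVs, the middle 5886 and 4682, and the 5′ control 6466 and 3575. The control for Alu repeats differed by a factor of 0.925 (exact permutation p = 0.4). RNA45SN5, the precursor of the ribosomal RNAs, chosen after its values were seen, read 6627, 7221 and 7424 in hESEVs, 934, 681 and 1240 in EXOs and 4728, 4848 and 4665 in MVs.

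**Figure D2:**
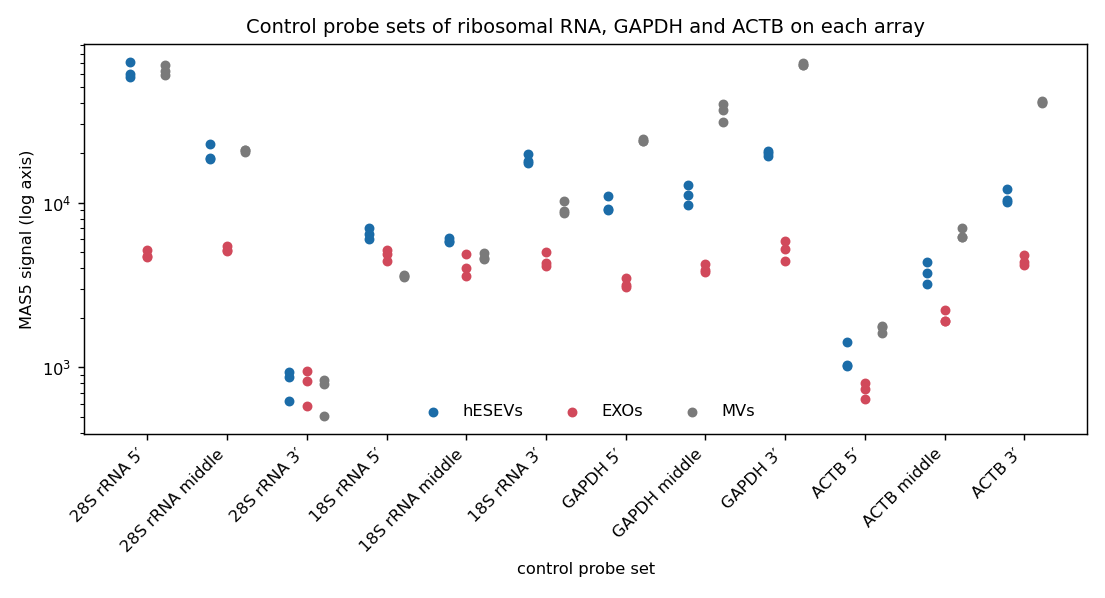
MAS5 signals (log axis) of the ribosomal RNA, GAPDH and ACTB control probe sets, with a point for each array of hESEVs (blue), EXOs (red) and MVs (grey). The 28S 5′ control has a mean of 63,263 in hESEVs, 63,683 in MVs and 4851 in EXOs, while its 3′ control is under 1000 in every group.

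Nuclear genes of oxidative phosphorylation, which supply the rest of the respiratory chain, were higher in hESEVs for 40 of 69 measured members (58.0%). Their median log2 difference was 1.53. This share stands beside 1.96% of all genes and 43.6% of genes with a mean over 3000. Whether it exceeds that of genes with like signal was not tested. By complex the called members were 20 of 33 for complex I, 0 of 3 for complex II, 5 of 7 for complex III, 8 of 11 for cytochrome c oxidase and 7 of 15 for the ATP synthase. NDUFA13, an accessory subunit of complex I, read 5594, 5221 and 3917 in hESEVs, 274, 205 and 133 in EXOs and 14,706, 15,044 and 14,526 in MVs. The difference from EXOs was 24.9-fold (log2 4.64, SE 0.28, adjusted p = 0.00011), against an EXOs level under background. COX7C, a small subunit of cytochrome c oxidase, read 17,256, 15,489 and 14,671 in hESEVs, 1656, 1107 and 1222 in EXOs and 44,873, 38,217 and 38,772 in MVs (12.1-fold). ATP5ME and ATP5F1E of the ATP synthase differed by log2 2.99 and 2.75, and COX6C by 1.99. NDUFB7, another complex I subunit, differed by 3.64 but read -0.97 through an unshared probe set. Against MVs, 53 of the 69 were higher in MVs, beside 6.65% of all genes (median log2 difference of hESEVs minus MVs -1.40). The count called against EXOs was 25, 26 and 26 without hESEVs replicate 1, 2 and 3 and 33 to 36 without an EXOs array, and without shared probe sets it was 12 of 57, with a median of 0.59.

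The broadest group was that of the cytosolic ribosomal proteins, the protein parts of the ribosome. Of 53 measured members 50 were higher in hESEVs (94.3%), 29 of 32 of the large and 20 of 20 of the small subunit by their symbols beside FAU. Their median log2 difference was 2.15. The share stands beside 1.96% of all genes and 43.6% of genes with a mean over 3000, and a comparison with genes of like signal was not tested. RPL35, whose tract of 11 pyrimidines is printed above, read 39,230, 38,057 and 36,899 in hESEVs and 4541, 5359 and 5427 in EXOs. The groups were 7.47-fold apart (log2 2.90, SE 0.12, adjusted p = 2.8e-05). RPL11, a 5S-binding protein of the large subunit, read 20,419, 19,107 and 18,797 against 2767, 3237 and 3049 (6.45-fold), and RPL36 and RPL38 differed by log2 2.74 each. The exceptions were chosen after their values were seen. RPL7 read 26,299, 23,020 and 23,134 against 11,819, 12,296 and 12,237, which passed the adjusted p but fell just short of 2-fold (log2 0.99). RPLP2 of the ribosomal stalk had a log2 difference of 2.32 (adjusted p = 0.33), and RPL36A stayed under background in every group.

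Against MVs, 51 of the 53 ribosomal proteins were higher in MVs, beside 6.65% of all genes. Their median log2 difference of hESEVs minus MVs was -1.55, and RPL35 read 87,488, 84,611 and 84,821 in MVs. Their summed signal was 1,629,370 to 1,880,830 in hESEVs, 366,090 to 385,896 in EXOs and 4,496,090 to 5,042,230 in MVs, so the groups did not overlap. Quantile normalization lowered the median against EXOs to 1.08 with 31 called, and left 0 called against MVs with a median of -0.12. Ribosomal protein genes have many near-identical pseudogene copies, and their probe sets could read more than the named gene. Without shared probe sets, 11 of the 30 still measured were called and the median was 0.23.

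The pyrimidine tract was counted over all genes as a C at a RefSeq start followed by at least 4 bases that are each C or T, on the gene's strand, at any listed start. It was present for 35 of 47 matched ribosomal protein genes (74.5%), for 11 of 32 translation factors (34.4%), for 8 of 59 nuclear genes of oxidative phosphorylation (13.6%) and for 5 of 65 mitochondrial ribosomal proteins (7.69%). Of the genes higher in hESEVs, 74 of 326 matched (22.7%) had it, and 41 of 281 (14.6%) with the ribosomal proteins left out. The share was 6.07% of 15,382 matched genes, 5.71% of genes not called, and 4.07% of 35,116 listed promoters. These are counts of letters and no test was made. GAPDH and NDUFA13, without the tract, differed as well.

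Of the 10 called genes with the largest folds and a hESEVs mean over background, 5 were mitochondrially encoded, NDUFA13 and NDUFB7 belonged to complex I, and 3 had other roles. TPM2, a tropomyosin of actin filaments, read 1355, 1150 and 724 in hESEVs and 25.6, 109 and 52.4 in EXOs. TRAPPC5, of a vesicle-tethering complex, differed by log2 3.94 and PET100, which helps to assemble cytochrome c oxidase, by 3.62. The calls of these 3 genes were lost without each of hESEVs replicates 1, 2 and 3, that of TRAPPC5 also without EXOs replicate 2 and that of PET100 without EXOs replicates 2 or 3, and their EXOs signals were near the lower limit or under background.

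**Figure D3:**
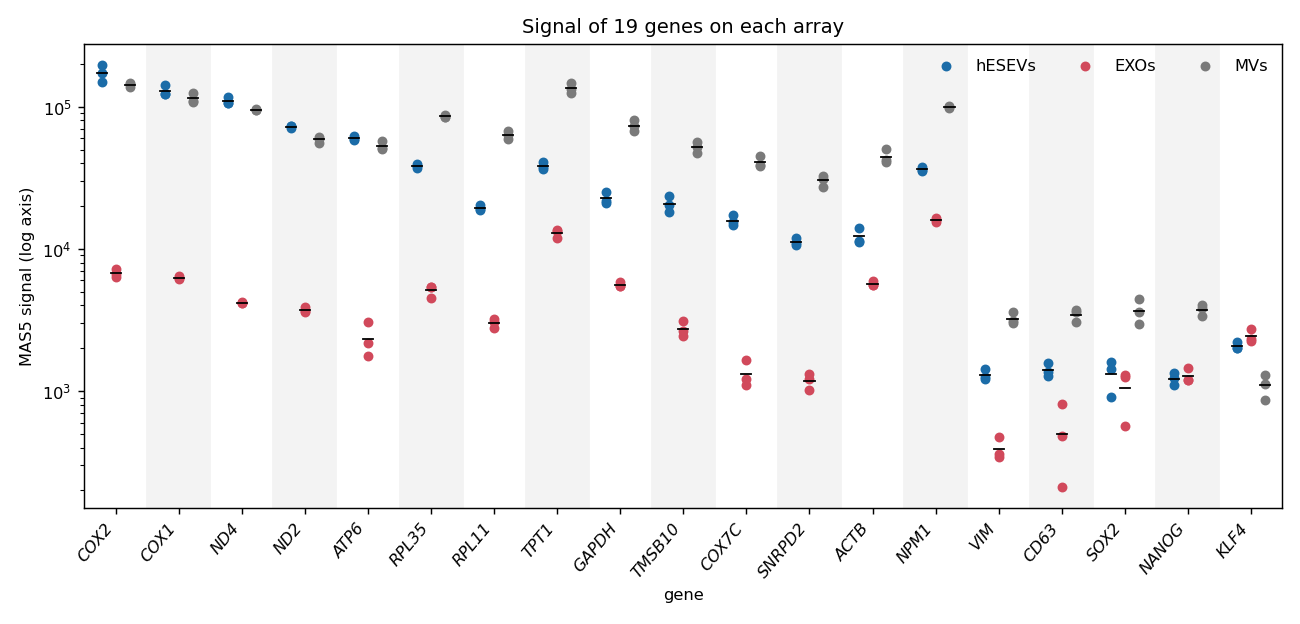
MAS5 signal (log axis) of 19 genes, with a point for each array of hESEVs (blue), EXOs (red) and MVs (grey) and a bar at each group mean. In the mitochondrially encoded genes at the left hESEVs lie beside MVs, in the nuclear genes from RPL35 to NPM1 hESEVs lie between EXOs and MVs, and SOX2, NANOG and KLF4 of hESEVs overlap or lie next to EXOs.

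Other housekeeping machinery, here and in the next paragraphs, was called in smaller shares. These stand beside 1.96% of all genes and 43.6% of genes with a mean over 3000. Whether they exceed the shares of genes with like signal was not tested. Translation factors were higher in hESEVs for 12 of 40 members (median log2 difference 0.47). TPT1, a growth-related protein with the tract, read 40,881, 37,756 and 36,286 in hESEVs and 13,310, 11,984 and 13,550 in EXOs (log2 1.57, SE 0.13, adjusted p = 0.00049), and EIF1, which helps choose the start codon, differed by log2 1.43. Both calls were lost under quantile normalization, with 0.22 and 0.75, and 5 of the 40 members were then called. EIF1 also lost its call without shared probe sets. Mitochondrial ribosomal proteins, which translate the mitochondrially encoded RNAs inside the organelle, were called for 8 of 73 (median 0.66), led by MRPL51 with log2 1.31. That count was 1, 3 and 1 without hESEVs replicate 1, 2 and 3, 5 without EXOs replicate 1, and 0 of 43 without shared probe sets.

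Glycolysis was called for 7 of 19 members, with a median of 0.95, and for 4 without any 1 of the hESEVs arrays. GAPDH, the glycolytic enzyme often used to normalize RNA, read 25,173, 21,037 and 21,789 in hESEVs and 5482, 5490 and 5820 in EXOs, a 4.04-fold difference (log2 2.01, SE 0.11, adjusted p = 7.6e-05). In MVs it read 72,994, 80,757 and 67,024. After quantile normalization its difference from EXOs was 0.95, under the 2-fold limit, and 4 of the 19 were called. LDHB, a lactate dehydrogenase subunit, differed by log2 1.61 (0.82 after quantile normalization, no longer called) and PGK1 by 1.18. ENO1, an enolase, differed by 1.54 but by -0.03 through an unshared probe set, and without shared probe sets 0 of 10 members were called.

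Proteins that fold, degrade or splice were represented as well. Of 27 proteasome subunits 10 were higher in hESEVs (median 1.12), a count that was 5 without any 1 hESEVs array or without EXOs replicate 3. Among them was PSMB4 with 2956, 2236 and 3252 against 435, 332 and 550 (log2 2.69, SE 0.23, adjusted p = 0.00065). Of 25 chaperones 7 were higher (median 1.00), among them HSPE1, the lid of the mitochondrial chaperonin, with log2 2.13, and the prefoldin subunit PFDN5 with 1.90. Of 48 splicing and hnRNP genes 11 were higher (median 0.65). SNRPD2, a core Sm protein of the spliceosome, read 11,949, 10,657 and 11,031 in hESEVs, 1317, 1020 and 1224 in EXOs and 31,211, 32,517 and 27,159 in MVs (log2 3.25, SE 0.12, adjusted p = 2.4e-05). Of 19 nucleolar genes 5 were higher (median 0.87), and 3 without any 1 array other than EXOs replicate 3. FBL, the methyltransferase of ribosomal RNA, differed by log2 2.01, and NPM1 by 1.18 but by -0.29 after quantile normalization, which left 2 called. Without shared probe sets the counts were 3 of 21, 3 of 18, 4 of 37 and 1 of 13 in this order.

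In the cytoskeleton list 13 of 33 genes were higher in hESEVs (median 0.95). TMSB10, a thymosin that binds actin monomers, read 23,368, 20,204 and 18,257 in hESEVs and 2446, 3107 and 2631 in EXOs (log2 2.92, SE 0.13, adjusted p = 4.3e-05). ACTB, cytoplasmic actin, read 14,139, 11,400 and 11,245 against 5568, 5549 and 5904 (log2 1.10, adjusted p = 0.0023). The call of ACTB was lost without hESEVs replicate 1, and quantile normalization reduced its difference to 0.08. Other ACTB probe sets gave 0.93 and 0.97, under 2-fold. MYL6, a myosin light chain, differed by 2.84 through a shared and by -1.53 through an unshared probe set. Quantile normalization left 7 of the 33 called, and 4 of 23 were called without shared probe sets.

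Among genes of protein entry into the endoplasmic reticulum, 4 of 31 were higher in hESEVs (median 0.56), including SSR4 of the translocon with log2 1.69 and SRP14 of the signal recognition particle with 1.22. SRP14 was no longer called after quantile normalization. Of the snoRNA host genes 2 of 6 were higher, but EPB41L4A-AS1 lost its call in 5 of the 6 fits that leave out an array. ZFAS1, with the tract, read 3852, 3201 and 3468 against 1391, 1209 and 1602.

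**Figure D4:**
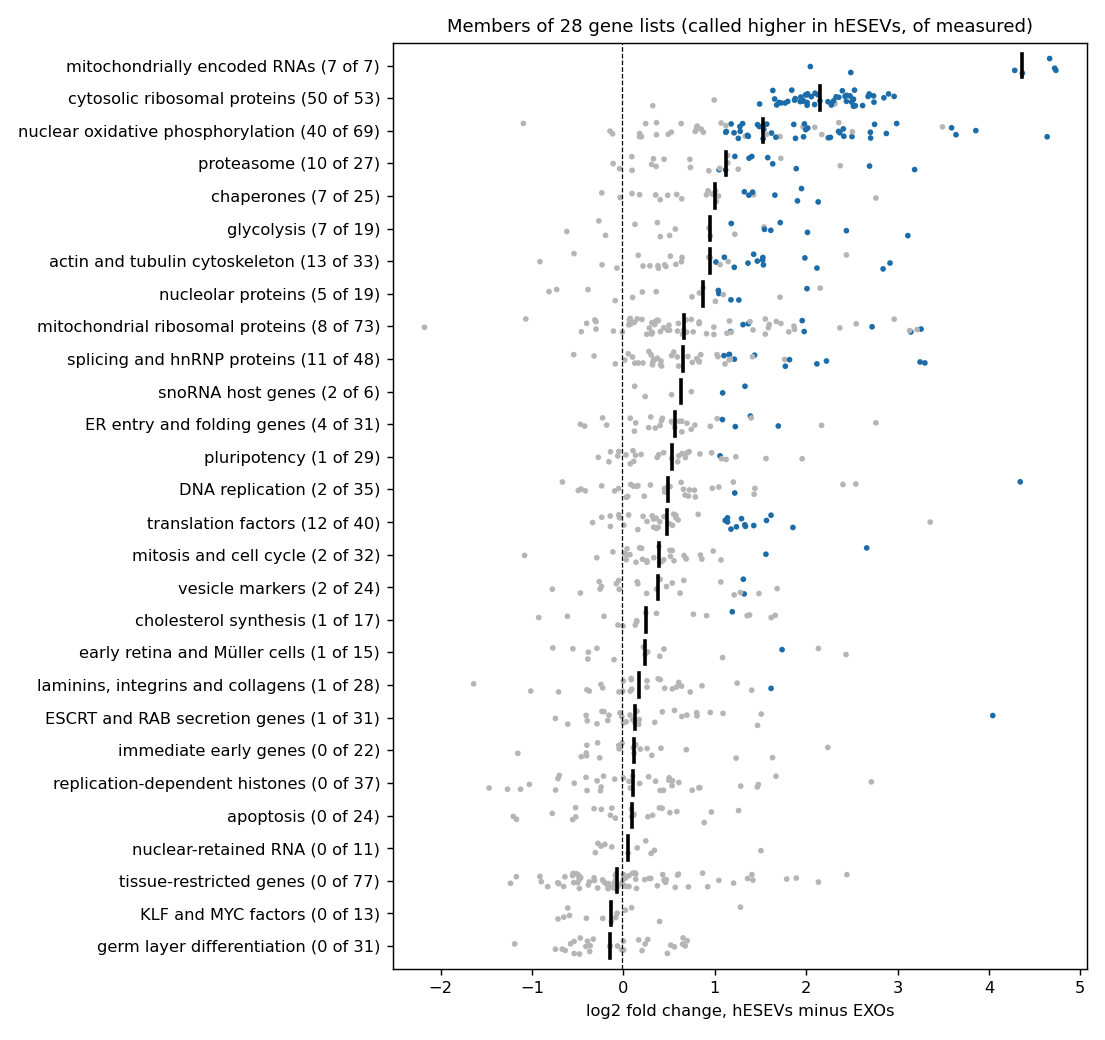
Log2 difference, hESEVs minus EXOs, of each measured member of 28 gene lists, with members called higher in hESEVs in blue, other members in grey, and a black bar at each list's median. The dashed line is the median of all genes (-0.01), and the number called of the number measured stands by each name, from 7 of 7 mitochondrially encoded RNAs and 50 of 53 cytosolic ribosomal proteins to 0 of 77 tissue-restricted genes.

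Of the cell cycle genes 2 of 32 for mitosis (6.25%) and 2 of 35 for replication (5.71%) were higher in hESEVs, beside 1.96% of all genes. CDC20 of mitosis lost its call without any of the 6 arrays and PCNA of replication in 5 of the 6 fits. ANLN, a scaffold of the cleavage furrow, read 15,083, 12,749 and 13,218 in hESEVs and 4653, 5135 and 4156 in EXOs (log2 1.56, SE 0.12, adjusted p = 0.00035). In MVs it read 129,483, 106,181 and 125,362, and after quantile normalization it was not called against EXOs (0.64). MCM5, a subunit of the replicative helicase, read 830, 707 and 649 against 28.2, 33.7 and 42.3. All 6 of these signals are under background, so its log2 difference of 4.34 depends on the lower limit of 32 and no fold is given. Without shared probe sets it was not called. Replication-dependent histones, whose mRNAs lack a poly(A) tail, gave 0 calls among 37 by limma at the same thresholds. At an unadjusted p under 0.05, 3 were higher in hESEVs, of which 2 at 2-fold, and 1 was higher in EXOs.

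Genes of pluripotency, the state that defines these cells, gave 1 call among 29 members (3.45%, near the 1.96% of all genes, median 0.53). That gene, CD24, a surface protein of the stem cells, read 9323, 8048 and 7376 in hESEVs and 3856, 4152 and 3837 in EXOs (log2 1.06, adjusted p = 0.0023), and its call was lost without hESEVs replicate 1 and under quantile normalization. In MVs CD24 read 48,594, 49,307 and 48,729. LIN28A, which blocks the maturation of let-7 miRNAs, read 4259, 4063 and 4501 in hESEVs, 2784, 2635 and 2381 in EXOs and 17,277, 16,718 and 19,267 in MVs. Its hESEVs and EXOs arrays did not overlap and the adjusted p was 0.012, but the difference of log2 0.72 was under 2-fold.

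SOX2 and NANOG, transcription factors that maintain pluripotency, were not called. SOX2 read 1600, 911 and 1433 in hESEVs and 1304, 569 and 1259 in EXOs (log2 0.39, adjusted p = 0.74), so the groups overlapped. NANOG read 1330, 1110 and 1229 against 1442, 1193 and 1200 (log2 -0.06, adjusted p = 0.91), also overlapping. In MVs SOX2 read 3574, 4417 and 2974 and NANOG 3351, 3818 and 4007, above every array of hESEVs and EXOs. The probe sets of SOX2 disagree. Another read 591, 535 and 452 in MVs, under every hESEVs and EXOs array. Its log2 difference of hESEVs minus EXOs was -0.41 (adjusted p = 0.55), and that of a further probe set was 0.82 (adjusted p = 0.60). By the probe sets that represent them, the EXOs means of SOX2 and NANOG were under the background level, so these EXOs signals cannot be told apart from background. SLC7A3, an amino acid transporter, read 1235, 1230 and 1126 against 621, 427 and 870 without overlap (log2 0.96, adjusted p = 0.19). THY1, a surface glycoprotein, read 1253, 1624 and 1802 against 454, 351 and 900 (log2 1.56, adjusted p = 0.092). Its other probe sets gave 0.83 (adjusted p = 0.25) and -0.08 (adjusted p = 0.93).

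KLF4, a reprogramming factor, read 2023, 2003 and 2204 in hESEVs, 2739, 2235 and 2338 in EXOs and 1303, 1118 and 871 in MVs. Its log2 difference of -0.23 from EXOs was not called (adjusted p = 0.55) and was 0.11 as the mean of its probe sets. None of the 13 KLF and MYC genes was called against EXOs by limma. At an unadjusted p under 0.05, 1 was higher in hESEVs, at 2-fold, and 2 were higher in EXOs at less than 2-fold, and the methods' t-test called 0. PI4K2A, a phosphatidylinositol kinase, read 1554, 939 and 1388 against 1555, 1643 and 2102 (log2 -0.47, adjusted p = 0.49). Its other probe sets gave -0.81 (adjusted p = 0.064), without overlap of the arrays, and -0.01 (adjusted p = 0.99). CECR7 differed by -0.01, with either sign depending on the scaling. PAX6 and RAX of early eye development were not called, with log2 differences of 0.24 and 0.44 that changed sign under leaving out an array or averaging probe sets.

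Of 24 vesicle markers 2 were called (8.33%, beside 1.96% of all genes). ANXA5, which binds phosphatidylserine on membranes, read 1092, 1354 and 1170 against 404, 478 and 585 (log2 1.31), and MFGE8, a secreted bridge between such membranes and integrins, 1251, 1198 and 1246 against 630, 520 and 365 (log2 1.32). Each was called in only 1 of the 6 fits that leave out an array. Of the exosome tetraspanins, CD63 read 1563, 1280 and 1372 in hESEVs and 484, 212 and 811 in EXOs without overlap (log2 1.68, adjusted p = 0.17), and CD81 1224, 1168 and 708 against 421, 363 and 533 (log2 1.21, adjusted p = 0.12). CD9 read 921, 1011 and 879 against 839, 1115 and 964 (log2 -0.05, adjusted p = 0.95), while another of its probe sets differed by 2.32 (adjusted p = 0.18), so the probe sets disagree. In the ESCRT and RAB list 1 of 31 was called (3.23%), CHMP2A of the membrane-scission machinery, at 733, 645 and 522 against 33.0, 42.7 and 39.2, all under background. These are RNA signals and say nothing of the tetraspanin or ESCRT proteins on the vesicles.

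None of 77 tissue-restricted genes was called in either direction by limma (median -0.07), 4 were higher in hESEVs and 3 in EXOs at an unadjusted p under 0.05 without a fold limit, 1 was called by the methods' t-test after adjustment, and their summed signals were 41,816 to 43,661 in hESEVs and 43,859 to 45,144 in EXOs. None of 31 genes of germ layer differentiation was called by limma, while at an unadjusted p under 0.05, without a fold limit, 3 were higher in hESEVs and 4 in EXOs. In the list of early retina and Müller cells 1 of 15 was called (6.67%, beside 1.96% of all genes). It was the intermediate filament gene VIM, with 1247, 1429 and 1224 in hESEVs, 360, 345 and 476 in EXOs and 3030, 3575 and 3089 in MVs (log2 1.74, SE 0.21, adjusted p = 0.0055). VIM is also expressed by many cultured cells, its call was lost without hESEVs replicate 2, and its second probe set gave 0.10. Apoptosis, immediate early and nuclear-retained RNA genes gave 0 calls among 24, 22 and 11 members by limma (5, 2 and 0 at an unadjusted p under 0.05 without a fold limit). Laminins, integrins and collagens gave 1 call among 28 (3.57%), COL18A1, and cholesterol synthesis 1 among 17 (5.88%), FDPS. The call of FDPS was lost without hESEVs replicate 1 or 3.

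**Figure D5:**
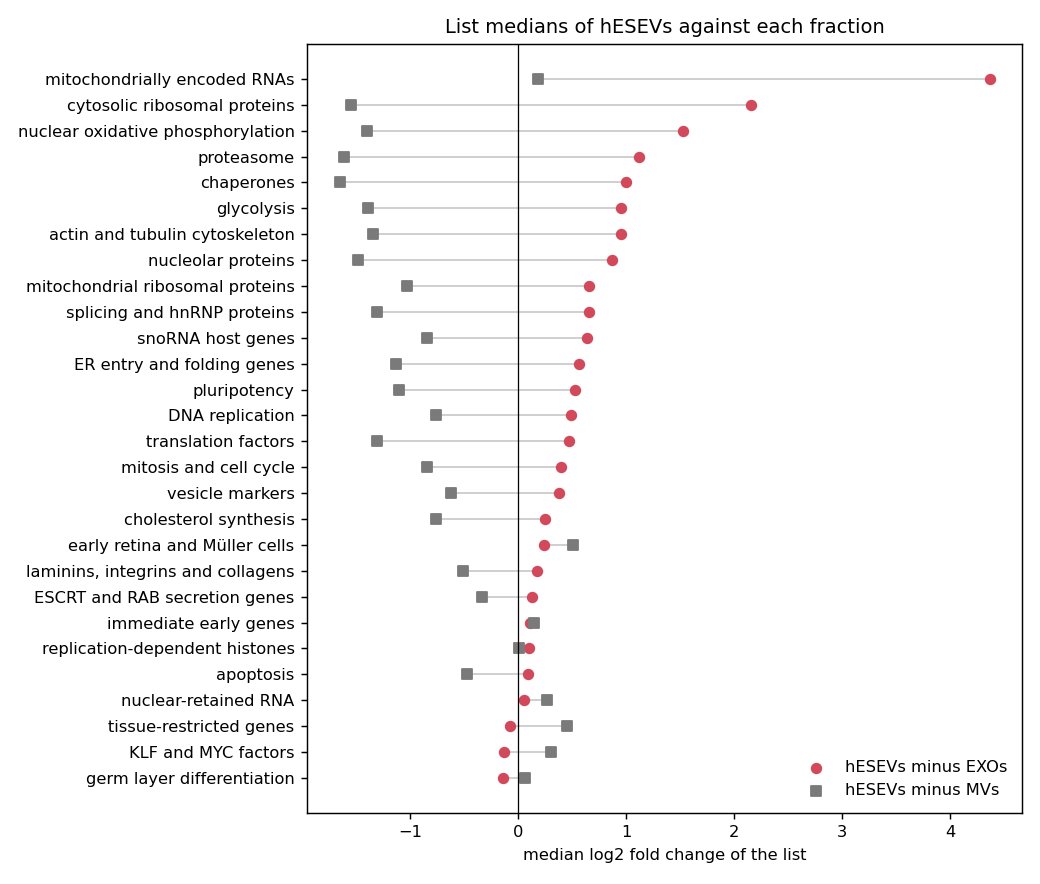
Median log2 difference of each gene list for hESEVs minus EXOs (red circles) and hESEVs minus MVs (grey squares), which share the hESEVs arrays. Mitochondrially encoded RNAs lie at 4.37 and 0.18, whereas cytosolic ribosomal proteins lie at 2.15 and -1.55 and nuclear oxidative phosphorylation at 1.53 and -1.40.

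Of the 387 genes higher in hESEVs than in EXOs, 314 (81.1%) were called higher in MVs than in hESEVs, beside 6.65% of all genes. Another 72 (18.6%) were not called against MVs, of which 16 were in a list. As given above, fewer genes were called higher in MVs after quantile normalization, so these counts may depend on the scaling. In the genes of no list given next, chosen after their values were seen, signals of hESEVs overlapped or exceeded those of MVs. TMEFF2, a transmembrane protein, read 28,363, 22,638 and 23,086 in hESEVs, 3141, 3542 and 4196 in EXOs and 16,555, 17,979 and 15,738 in MVs. PTPRO, a receptor tyrosine phosphatase, read 17,156, 17,235 and 15,643 in hESEVs, 2044, 1779 and 2252 in EXOs and 15,473, 16,993 and 17,292 in MVs. SOX4, a transcription factor, read 4910, 3031 and 3897 in hESEVs, 878, 375 and 735 in EXOs and 4850, 4532 and 4424 in MVs.

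The 6 genes higher in EXOs were ADORA3, CFAP157, LINC02870, OR52K3P, PCDHGC4 and UTS2R, named after their values were seen. ADORA3, an adenosine receptor, had the highest EXOs mean among them and read 1112, 1032 and 859 in EXOs and 436, 301 and 414 in hESEVs (log2 -1.39, adjusted p = 0.039). UTS2R, the urotensin receptor, read 973, 663 and 1180 against 195, 175 and 195. Every EXOs mean of the 6 was under the background level of 1290. PCDHGC4 lost its call without each hESEVs replicate, UTS2R in 5 and the others in all 6 of the fits that left out an array. Among the 20 probe sets, 2 had an EXOs mean over the background level and 13 a mean under 1000. No member of the 28 lists was among the genes higher in EXOs.

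Control probe sets at either end of GAPDH and ACTB were compared, a measure related to the length of the labelled RNA. The log2 difference of the 3′ minus the 5′ control of GAPDH was 1.04 ± 0.12 (SD, n = 3) in hESEVs, 0.67 ± 0.17 in EXOs and 1.53 in MVs, so that hESEVs exceeded EXOs by 0.38 (exact permutation p = 0.1, two-sided, the smallest possible). For ACTB it was 3.24 ± 0.14, 2.61 ± 0.14 and 4.57, and hESEVs exceeded EXOs by 0.63 (exact permutation p = 0.1). The ACTB 5′ control of EXOs read 728 ± 82, under the background level of 1290, so its ratio in EXOs is uncertain. By electrophoresis of total RNA, the paper found longer RNA in MVs than in EXOs, so these ratios are not taken as RNA length. Both ratios were lowest in EXOs and highest in MVs, the order in which the summed signals of the cytosolic ribosomal proteins also stood. Their part in the differences was not tested.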

How the data were processed

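RNA of hESEVs, EXOs and MVs was hybridised to 9 Affymetrix HG-U133 Plus 2.0 arrays, with 3 of each. The deposited values are linear intensity values of probe sets, which the authors made with MAS5 (version not given in the sources used here) at a target of 500, and the mean of each array without its lowest and highest 2% was 500. The RMA values and the software of the published comparison were not used here. One locus is not analysed here.

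Signals were raised to at least 32 and log2 was taken. The 62 control probe sets were left out. hESEVs and EXOs were compared in limma 3.58.1 (R 4.3.3; lmFit, eBayes with a trend, two-sided) on their 6 arrays, with Benjamini-Hochberg adjustment over 54,613 probe sets, and called at an adjusted p under 0.05 and at least 2-fold. hESEVs and MVs were fitted in the same way on their own 6 arrays. Each gene was represented by its probe set of highest mean log2 signal among those paired with 1 gene by the array annotation. Nothing states that replicates share more than a number across groups, and 3 arrays per group limit the precision. Lists are described by counts and medians without a test.

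Named genes are the 10 called genes of largest fold each way, with no overlap between the groups and a higher mean over the background level, the 4 members of smallest p in each list, and the genes the study names. For EXOs no gene met this rule. The comparison, its members and the lists were chosen with earlier results of these data known. The fit was tested on simulated data with known changes. Alternatives were other scalings, floors and filters, unadjusted p, the methods' t-test, no trend, all 9 arrays, the replicate number as a block, each array left out, and other rules for shared probe sets and probe sets of a gene. Start sites came from RefSeq (GRCh38.p14), and figures were drawn with matplotlib 3.10.9 in Python 3.11.15.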

Additional observations from a re-analysis of the deposited data

Results flagged for a closer look

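Ribosomal RNA control probe sets lie outside the tests across genes, and 3 of them carried a signal on every hESEVs array that was more than 2-fold above that of EXOs. hESEVs over EXOs was 12.99-fold for the 28S 5′ control, 3.80-fold for the 28S middle control and 4.11-fold for the 18S 3′ control, each with an exact permutation p of 0.1, the smallest possible. Groups of 3 arrays are too small to test for an outlying array.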

How the results depend on the processing

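Counts are given as genes higher in hESEVs and in EXOs, then probe sets in the same order, beside 387 and 6, and 719 and 20. They were 920 and 298, 2123 and 1080 by limma without adjustment; 736 and 184, 1667 and 660 by the methods' t-test, which after Benjamini-Hochberg adjustment gave 155 and 2, 314 and 15. Other scalings gave 312 and 62, 548 and 133 (quantile), 426 and 8, 776 and 21 (arrays centred on their median) and 443 and 8, 813 and 19 (spike-ins). A floor of 1 gave 429 and 10, 783 and 30, a floor of 100 gave 310 and 13, 629 and 51, and only probe sets above the median signal gave 444 and 14, 806 and 36. Without the trend they were 171 and 11, 362 and 36, and in a fit of all 9 arrays 558 and 17, 1064 and 56. For genes alone, 1 probe set per gene gave 441 and 15, the mean of a gene's probe sets 280 and 11, and unshared probe sets 102 and 0. Leaving out an array gave 242 to 329 and 1 to 4 genes, 468 to 618 and 5 to 15 probe sets. Genes higher in hESEVs than MVs and the reverse numbered 380 and 758 (quantile), 67 and 1812 (centred) and 259 and 1153 (all 9 arrays), and 112 to 164 and 1048 to 1294 with an array left out.

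Replicate numbers did not pair arrays (correlations of deviations -0.01 to 0.01). The replicate block gave 283 and 0 genes, 543 and 2 probe sets, and 91 and 1198 genes against MVs. With an array left out, the control differences were 0.28 to 0.44 (GAPDH) and 0.57 to 0.71 (ACTB).

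Among the named genes the sign changed without shared probe sets for NDUFB7 (-0.97), ENO1 (-0.025), PFDN4 (-0.40), SNRPD1 (-0.38), MYL6 (-1.53), MYCN (-1.52), GFAP (-0.17), CHMP5 (-0.10) and SC5D (-1.47). It changed under quantile normalization for NPM1 (-0.29), and by the mean of probe sets for MYCN (-0.15), KLF4 (0.11), PAX3 (-0.24), SC5D (-0.28), CYCS (-0.52), MALAT1 (0.17), TUG1 (0.27), FGA (0.41), CD9 (0.65) and PAX6 (-0.66). CECR7 was 0.010 centred and 0.019 by spike-ins. With an array left out, values of either sign were found for SOX2 (-0.0034 to 0.63), NANOG (-0.12 to 0.027), CECR7 (-0.36 to 0.41), CD9 (-0.15 to 0.056), PAX6 (-0.30 to 0.87) and RAX (-0.19 to 0.92). The cause of these changes was not tested. Of the 68 named genes called higher in hESEVs, 51 were called without any 1 array. Signals under the background level limit statements on the EXOs side, and 3 arrays per group cannot give an exact p under 0.1.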
